A study of Mus musculus with 4 samples.

Results

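The BCL2 family genes described here are 10 genes of the mitochondrial (intrinsic) apoptosis pathway. They are 3 anti-apoptotic genes (*Bcl2*, *Bcl2l1*, *Mcl1*), 2 effectors (*Bax*, *Bak1*) and 5 BH3-only genes (*Bid*, *Bbc3*, *Pmaip1*, *Bcl2l11*, *Bmf*). They were chosen by symbol and not by a limit on a measured value, but with earlier results of these data known. Each of the 10 symbols matched 1 of the 39179 Ensembl genes in the count files. RNA was sequenced from 4 libraries of the mouse melanoma cell line B16F1. The 2 control libraries came from parental B16F1 cells, which are conventionally grown on rigid dishes. The other 2 came from tumor repopulating cells (TRCs), which are cells freshly taken from multicellular spheroids that had grown from single B16F1 cells in soft 3D fibrin gels. No gene was altered and no drug was given in either group. TRCs thus differ from parental cells by the survivors of gel culture, by the gel and by the spheroid, and these cannot be told apart. In each group the libraries are numbered 1 and 3. Nothing in the labels says that they were separate cultures, so the p-values measure the spread between these libraries, which may be technical.

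In the intrinsic pathway, BAX and BAK, once activated, form pores in the outer mitochondrial membrane and release cytochrome c, which starts caspase activation. BCL2, BCL-xL (the main product of *Bcl2l1*) and MCL1 hold BAX and BAK in check. BH3-only proteins report stress by binding the anti-apoptotic proteins or by activating BAX and BAK directly. Much of this control acts on the proteins, and only mRNA was measured here. In melanocytes, *Bcl2* is known as a target of the lineage factor MITF.

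The libraries held 35948295 to 43511554 counts on genes, and values are given as CPM, the counts scaled to a common library size after TMM normalization. At these depths 3 counts, taken as the smallest detectable number, equal 0.0675 to 0.0850 CPM, which covers counting error only. The 9 melanocyte markers checked were detected in every library, with a summed level of 16261 to 19458 CPM in parental cells and 24575 to 27363 CPM in TRCs. Of these 9, 1 rose in TRCs at an FDR under 0.05 in edgeR's exact test, where 8.81% of all genes tested did. It was *Dct*, with a mean of 5014 CPM in parental cells and 10591 CPM in TRCs, a large part of the higher sum. Summed levels were 1.71 to 4.97 CPM for 8 leukocyte markers, 2.04 to 4.68 CPM for 6 fibroblast markers and 0.0481 to 0.198 CPM for 4 endothelial markers. The leukocyte genes *Ptprc*, *Cd3e*, *Itgam* and *Adgre1*, the fibroblast gene *Dpt*, and the endothelial genes *Cdh5* and *Kdr* were among those with 0 counts in all libraries. Of 7 immediate early genes, a sign of handling, 2 rose and 1 fell in TRCs at an FDR under 0.05. At that limit 8.81% of all genes tested rose and 7.05% fell. *Fos* was 6.33-fold higher (FDR = 1.4e-06, edgeR's exact test) and *Fosb* 21.05-fold higher (FDR = 1.42e-05), while *Atf3* was 2.96-fold lower (FDR = 0.042) with groups that overlapped. Their part in the results was not tested. Alignments that were not unique made up 15.2% and 17.1% of the total in the parental libraries, below the 18.3% and 25.2% of TRC replicates 1 and 3, and their part in the results was not tested.

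Of the 10 genes, *Bmf* rose in TRCs, 8 did not pass the test in either direction, and *Pmaip1* had 0 counts in every library and could not be tested. *Bmf* was 4.59-fold higher in TRCs. The other BH3-only genes with counts, the effectors and the anti-apoptotic genes had log2 fold changes between -0.49 and 0.73. Genes were compared with edgeR's exact test and Benjamini-Hochberg adjustment over the 11483 genes with at least 1 CPM in at least 2 libraries, and were called at an FDR under 0.05. Among all genes tested, 8.81% were called higher and 7.05% lower in TRCs. Of the 9 BCL2 family genes tested, 1 was called higher and 0 lower, and at an unadjusted p under 0.05 there was 1 in each direction, where 28% of all genes passed that limit in either direction. The quasi-likelihood test of edgeR also called 1 higher and 0 lower, and DESeq2's Wald test called 1 higher and 1 lower, the latter being *Mcl1*. Their log2 fold changes had a median of -0.098, beside 0.0034 for all genes tested. Of these 9, both TRC libraries lay above both parental libraries in 2 genes and below them in 3, where the shares over all genes were 30.2% and 30.4%, or 60.6% in either direction.

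**Figure D1:**
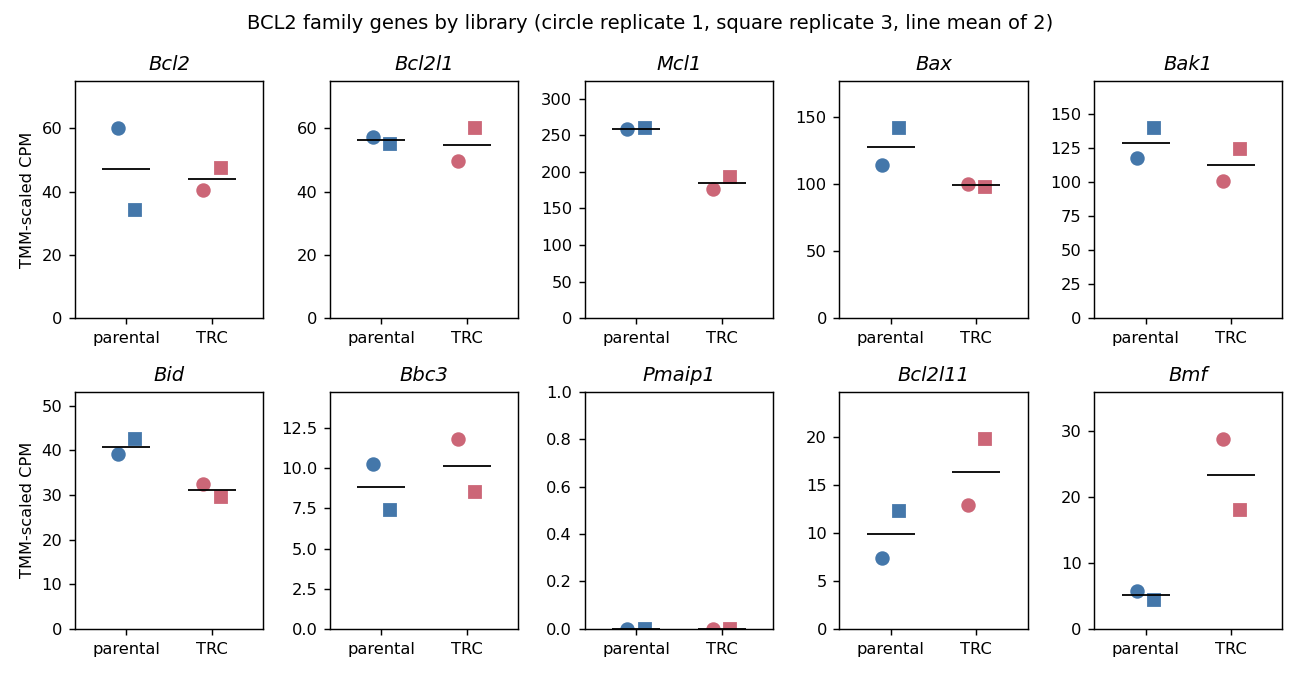
Level of each BCL2 family gene in TMM-scaled CPM (y axis, starting at 0, a separate scale in each panel) in the 2 parental libraries (blue) and the 2 TRC libraries (red). Circles are replicate 1, squares are replicate 3 and lines are group means. Both TRC libraries lie well above both parental libraries in *Bmf*, and all libraries are at 0 in *Pmaip1*.

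*Bmf* encodes a BH3-only protein known to be held on the cytoskeletal motor complex and to take part in anoikis, the apoptosis of cells that lose attachment. Its gene spans bases 118528757 to 118549687 of chromosome 2, minus strand (GRCm38, as are all positions here). Parental replicates 1 and 3 had 258 and 154 counts, or 5.80 and 4.36 CPM. For TRC replicates 1 and 3 the counts were 1196 and 748, or 28.8 and 18.0 CPM. The lowest TRC library was thus far above the highest parental library, and the groups did not overlap. The mean rose from 5.08 ± 1.02 to 23.4 ± 7.63 CPM (SD, n = 2 each), which is 2.199 on the log2 scale (SE 0.34 from DESeq2, FDR = 7.14e-07 in edgeR's exact test). The FDR was 0.0139 in the quasi-likelihood test. Leaving out any 1 library gave log2 fold changes from 1.804 to 2.49, and the gene was called in all 4 fits, with FDR values up to 0.00711. The genes whose profile over the 4 libraries was closest to that of *Bmf* were *F11r*, *Fabp7* and *Lrrc4b*. Their distances on the centred log2 scale were 0.122, 0.165 and 0.197, where the median over all genes tested was 2.17. With 4 libraries in 2 groups such likeness mostly reflects the size of the difference between groups.

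*Bcl2l11* encodes BIM, a BH3-only protein that can bind all anti-apoptotic members and is known for its role when growth factor or adhesion signals are lost. It spans bases 128126038 to 128162547 of chromosome 2, plus strand. Its level was 7.42 and 12.3 CPM in parental replicates 1 and 3, and 12.9 and 19.8 CPM in TRC replicates 1 and 3. Both TRC libraries were above both parental libraries, but TRC replicate 1 exceeded parental replicate 3 only narrowly. The log2 fold change was 0.73 (SE 0.37, FDR = 0.200, edgeR's exact test), so the difference did not pass the test, with a 95% interval from 0.0057 to 1.45. Replicate 1 was lower than replicate 3 in both groups, by -0.69 in parental cells and -0.59 in TRCs on the log2 scale. The estimate ranged from 0.39 without TRC replicate 3 to 1.14 without parental replicate 3. Counts are per gene, so the known splice forms of BIM cannot be told apart.

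*Bbc3* encodes PUMA, a BH3-only protein known as a direct p53 target, and spans bases 16308393 to 16318205 of chromosome 7, plus strand. Its level was 10.3 and 7.40 CPM in parental replicates 1 and 3, and 11.8 and 8.51 CPM in TRC replicates 1 and 3. The groups overlapped, and in both of them replicate 1 was the higher, by 0.45 on the log2 scale in each. The log2 fold change was 0.20 (SE 0.35, FDR = 0.794, edgeR's exact test), with a 95% interval from -0.48 to 0.89. *Bid* encodes the BH3-only protein that caspase-8 cleaves, which links death receptors to mitochondria. It was at 39.2 and 42.5 CPM in parental cells and at 32.4 and 29.7 CPM in TRCs. The groups did not overlap, with TRCs the lower, but the log2 fold change of -0.40 (SE 0.22, FDR = 0.280, edgeR's exact test) did not pass. *Bid* spans bases 120891930 to 120916853 of chromosome 6, minus strand, and shares 628 exon bases with *Bcl2l13* on the opposite strand. The strand setting of the counting is not given, so reads from that stretch may not be separable.

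*Pmaip1* encodes NOXA, a BH3-only protein that binds MCL1 in particular. It had 0 counts in each of the 4 libraries, out of 162980721 counts on genes in all. A count of 0 allows a level of up to 0.0675 to 0.0850 CPM per library, so no difference between TRCs and parental cells was detectable at this depth. The 3 nearest protein-coding genes on each side were looked at after this value was seen. *Ccbe1* and *Mc4r*, which flank it directly, and *Cplx4* also had 0 counts. *Lman1* had 4919 to 6672 counts per library, *Mppe1* had 230 to 393 and *Gnal* had 15 to 31.

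Neither effector gene passed the test. *Bax* spans bases 45461697 to 45466898 of chromosome 7, minus strand, and shares 8.51% of its 50-base stretches with *Gm45808*. It was at 114 and 142 CPM in parental replicates 1 and 3, and at 100.3 and 98.3 CPM in TRC replicates 1 and 3. Both TRC libraries were below both parental libraries, but the gap to parental replicate 1 was smaller than that between the parental libraries. The log2 fold change was -0.37 (SE 0.21, FDR = 0.295, edgeR's exact test), with a 95% interval from -0.78 to 0.051. *Bak1* (chromosome 17, bases 27019810 to 27029009, minus strand) was at 118 and 139 CPM in parental cells and at 101 and 124 CPM in TRCs. Here the groups overlapped, and the log2 fold change was -0.19 (SE 0.22, FDR = 0.643, edgeR's exact test). It shares 437 exon bases with *Ggnbp1* on the opposite strand. The ratio of *Bax* to *Bak1* per kb of exon was 1.48 and 1.55 in the parental libraries and 1.52 and 1.21 in the TRC libraries, and these ranges overlapped.

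Of the anti-apoptotic genes, *Mcl1* was the most abundant. Its protein is short-lived, and the amount of protein was not measured here. *Mcl1* spans bases 95658788 to 95663176 of chromosome 3, plus strand. It had 259.2 and 259.3 CPM in parental replicates 1 and 3, and 176 and 192 CPM in TRC replicates 1 and 3. The parental libraries were almost equal and both TRC libraries were well below them, with no overlap. The mean was 259.2 ± 0.069 CPM (SD, n = 2) in parental cells and 184 ± 11.3 CPM (SD, n = 2) in TRCs, which is 1.41-fold lower. In edgeR's exact test this log2 fold change of -0.49 (SE 0.19) had an unadjusted p of 0.0278 and did not pass after adjustment, with an FDR of 0.120. The FDR was 0.108 in the quasi-likelihood test and 0.0498 in DESeq2's Wald test, and it ranged from 0.0498 to 0.140 over the alternatives with all 4 libraries.

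*Bcl2l1* (chromosome 2, bases 152780668 to 152831728, minus strand) was at 57.2 and 55.2 CPM in parental replicates 1 and 3, and at 49.8 and 60.0 CPM in TRC replicates 1 and 3. The TRC libraries lay on both sides of the parental ones. The log2 fold change was -0.034 (SE 0.22, FDR = 0.945, edgeR's exact test), with a 95% interval from -0.46 to 0.39. *Bcl2* (chromosome 1, bases 106538178 to 106714274, minus strand) was at 60.0 and 34.3 CPM in parental cells and at 40.5 and 47.6 CPM in TRCs. Its parental libraries differed by 0.80 on the log2 scale and enclosed both TRC libraries. It shares 558 exon bases with *D630008O14Rik* on the opposite strand, and 5.25% of its 50-base stretches occur in transcripts of other genes. The log2 fold change of -0.098 (SE 0.30, FDR = 0.864, edgeR's exact test) had a 95% interval from -0.68 to 0.49. It was -0.44 without parental replicate 3 and 0.36 without parental replicate 1, so the sign rests on 1 library. *Mitf*, whose product acts on *Bcl2*, differed between the same parental libraries in the same order, with 586 and 358 CPM in replicates 1 and 3, and was at 523 and 570 CPM in TRCs. Its part in the *Bcl2* level was not tested.

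**Figure D2:**
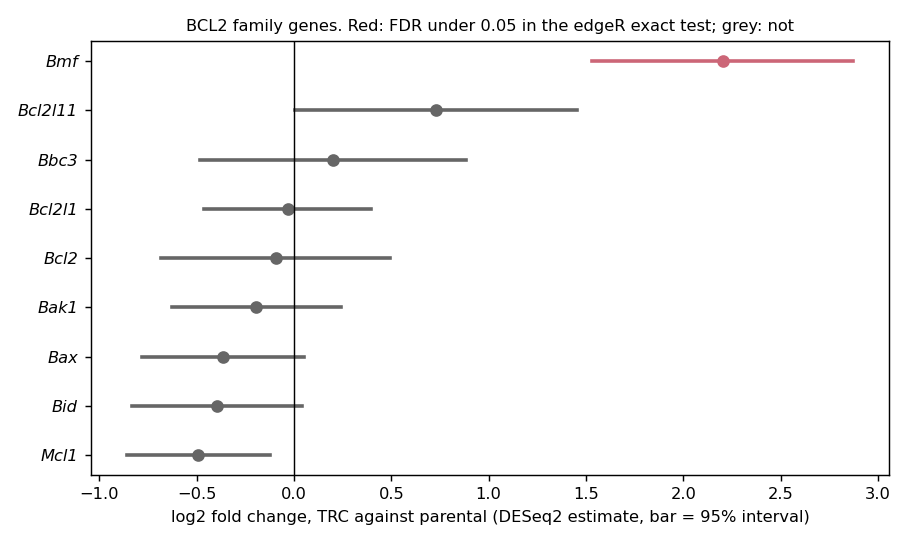
Log2 fold change of TRCs against parental cells for the 9 BCL2 family genes tested (x axis, DESeq2 estimate with its 95% interval as a bar). *Bmf* (red) was called at an FDR under 0.05 in the edgeR exact test, and the other 8 genes (grey) were not. The interval of *Mcl1* lies below 0 and that of *Bcl2l11* just above 0.

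Levels of different genes were compared as CPM per kb of exon, with exon lengths from GENCODE M21. In parental cells *Bax* (81.2 ± 12.2, SD, n = 2) and *Mcl1* (75.8 ± 0.020) stood highest, and their ranges overlapped. *Bak1* followed at 53.4 ± 6.32, then *Bcl2l1* at 12.3 ± 0.31 and *Bid* at 11.5 ± 0.67, which were close but did not overlap. *Bcl2* (5.14 ± 1.98) and *Bbc3* (4.16 ± 0.96) overlapped, as did *Bcl2l11* (1.23 ± 0.43) and *Bmf* (0.968 ± 0.194) at the bottom. In TRCs the first 7 genes kept their places. *Bax* was at 63.0 ± 0.91 CPM per kb and *Mcl1* at 53.9 ± 3.31, without overlap. *Bmf* (4.45 ± 1.45) stood above *Bcl2l11* (2.03 ± 0.60) and its range overlapped those of *Bcl2* (4.81 ± 0.55) and *Bbc3* (4.78 ± 1.10). The ratio of *Bmf* to *Bcl2l11* per kb was 1.19 and 0.542 in the parental libraries and 3.40 and 1.39 in the TRC libraries.

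By role, the 3 anti-apoptotic genes made up 35.6% to 40.5% of the summed level per kb of the 10 genes in the parental libraries and 34.4% to 36.1% in the TRC libraries. The 2 effectors made up 51.9% to 57.4% and 54.3% to 55.1%. For both roles the ranges of the groups overlapped. The 5 BH3-only genes made up 6.93% to 7.64% in parental and 8.83% to 11.2% in TRC libraries. Their summed level per kb was 17.9 and 17.8 in the parental and 21.8 and 18.3 in the TRC libraries. Without *Bmf*, a sum taken after the values were seen, it was 16.8 and 17.0 in the parental and 16.3 and 14.8 in the TRC libraries, so that the higher sum in TRCs rested on *Bmf*. The summed level of the anti-apoptotic genes was 94.9 and 91.6 in the parental and 66.9 and 74.5 in the TRC libraries. That of the effectors was 121.5 and 147.7 in the parental and 105.5 and 113.8 in the TRC libraries. The higher BH3-only share in TRCs thus also reflects lower sums of the other roles. These shares add mRNAs whose proteins differ in turnover and were not tested. The ratio of *Mcl1* to *Bcl2l1* per kb was 6.08 and 6.30 in the parental libraries and 4.75 and 4.30 in the TRC libraries.

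**Figure D3:**
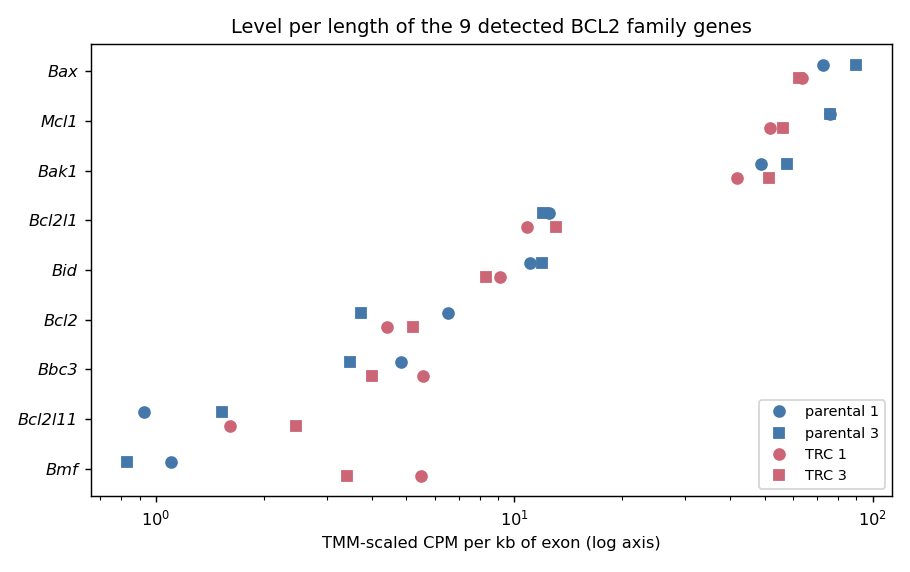
Level of the 9 detected BCL2 family genes in TMM-scaled CPM per kb of exon (log x axis) in each library, ordered by the parental mean. Blue is parental and red is TRC, with circles for replicate 1 and squares for replicate 3. *Bax*, *Mcl1* and *Bak1* lie apart from the other genes in every library, and *Bmf* moves from the bottom of the order in parental cells to the range of *Bcl2* and *Bbc3* in TRCs.

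Among further members of the family, the mitophagy receptors *Bnip3* and *Bnip3l*, whose BH3-like proteins act on mitochondrial turnover and are known to be induced by low oxygen, rose in TRCs. *Bnip3* was at 29.2 and 19.7 CPM in parental replicates 1 and 3, and at 477 and 1240 CPM in TRC replicates 1 and 3. The TRC libraries differed by a wide margin from each other and by a wider one from parental cells. The log2 fold change was 5.13 (SE 0.38, FDR = 2.37e-27, edgeR's exact test). It was 4.27 without TRC replicate 3 and 5.65 without TRC replicate 1, and was called in both cases. *Bnip3l* rose from 78.7 ± 1.76 to 404 ± 161 CPM (SD, n = 2 each), by 2.36 on the log2 scale (SE 0.28, FDR = 3.06e-13, edgeR's exact test).

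The anti-apoptotic *Bcl2l2* (BCL-w) was at 33.5 and 17.2 CPM in parental cells and at 38.5 and 34.3 CPM in TRCs, so that TRC replicate 3 was barely above parental replicate 1 and the difference did not pass (FDR = 0.276, edgeR's exact test). *Bcl2l12* had a log2 fold change of 0.57 (FDR = 0.331), *Bad*, a BH3-only gene whose product is controlled by AKT, one of -0.24 (FDR = 0.679) and *Bcl2l13* one of -0.072 (FDR = 0.874), none of which passed. Of the 15 further family genes listed, 13 were matched and 6 tested. In the exact test 2 were called higher and 0 lower, where 8.81% and 7.05% of all genes tested were. There were also 0 lower at an unadjusted p under 0.05, and 0 called lower by the quasi-likelihood test and by DESeq2. The other 7 matched genes were below the filter. *Bok* had 4 to 18 counts per library, *Hrk* 0 to 15, *Bik* 3 to 9, *Bcl2l14* 0 to 5, *Bcl2l15* 1 to 3 and *Bcl2l10* 1 or 2. *Bcl2a1b*, of a multigene family with near-identical copies, had 0.

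Downstream of the family, the list of cytochrome c, apoptosome and caspase genes had 12 genes tested, of which 1 rose and 1 fell, a share close to the 15.9% called over all genes, with a median log2 fold change of 0.0061. *Casp6*, an executioner caspase, rose from 11.2 ± 2.41 to 28.7 ± 7.31 CPM (SD, n = 2 each), by 1.35 on the log2 scale (SE 0.31, FDR = 0.00102, edgeR's exact test). *Htra2*, a mitochondrial protease that is released with cytochrome c and opposes inhibitor of apoptosis proteins, fell from 141 ± 4.65 to 75.7 ± 20.5 CPM (SD, n = 2 each), which is -0.90 on the log2 scale (SE 0.25, FDR = 0.00476). Without TRC replicate 3 the FDR was 0.123 for *Casp6* and 0.197 for *Htra2*. The 10 other genes of the list, among them *Cycs*, *Apaf1* and *Casp9*, did not pass.

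Of 5 inhibitor of apoptosis genes tested, 1 rose and 1 fell, where 8.81% of all genes tested were called higher and 7.05% lower. *Birc2* (cIAP1) rose with a log2 fold change of 0.86 (FDR = 0.0245, edgeR's exact test) and *Birc5* (survivin, also a mitotic protein) fell with -0.69 (FDR = 0.0357). In the quasi-likelihood test neither passed, with an FDR of 0.0583 and 0.0720. *Birc2* was lost when any library but parental replicate 1 was left out, with FDR values up to 0.269, and so was *Birc5*, with values up to 0.341. Of 8 genes tested for death receptors and their adaptors, 1 fell and 0 rose, beside the same shares of 7.05% lower and 8.81% higher over all genes. There were 0 higher at an unadjusted p under 0.05 in the exact test, and 0 called higher by the quasi-likelihood test and by DESeq2. The gene that fell was *Ripk1*, the kinase at the branch between survival and death signaling, with a log2 fold change of -0.85 (FDR = 0.00830, edgeR's exact test). Its FDR was 0.139 without parental replicate 3, 0.103 without TRC replicate 1 and 0.0984 without TRC replicate 3. The receptor gene *Fas* had 2 and 1 counts in the parental and 0 in both TRC libraries. Of 11 genes tested for binding partners and turnover of BCL2 family proteins, 0 rose and 0 fell by edgeR's exact test, the quasi-likelihood test or DESeq2, with 0 at an unadjusted p under 0.05 by each, and log2 fold changes from -0.39 to 0.30. In the exact test over all genes, 15.9% were called in either direction and 28% had an unadjusted p under 0.05.

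**Figure D4:**
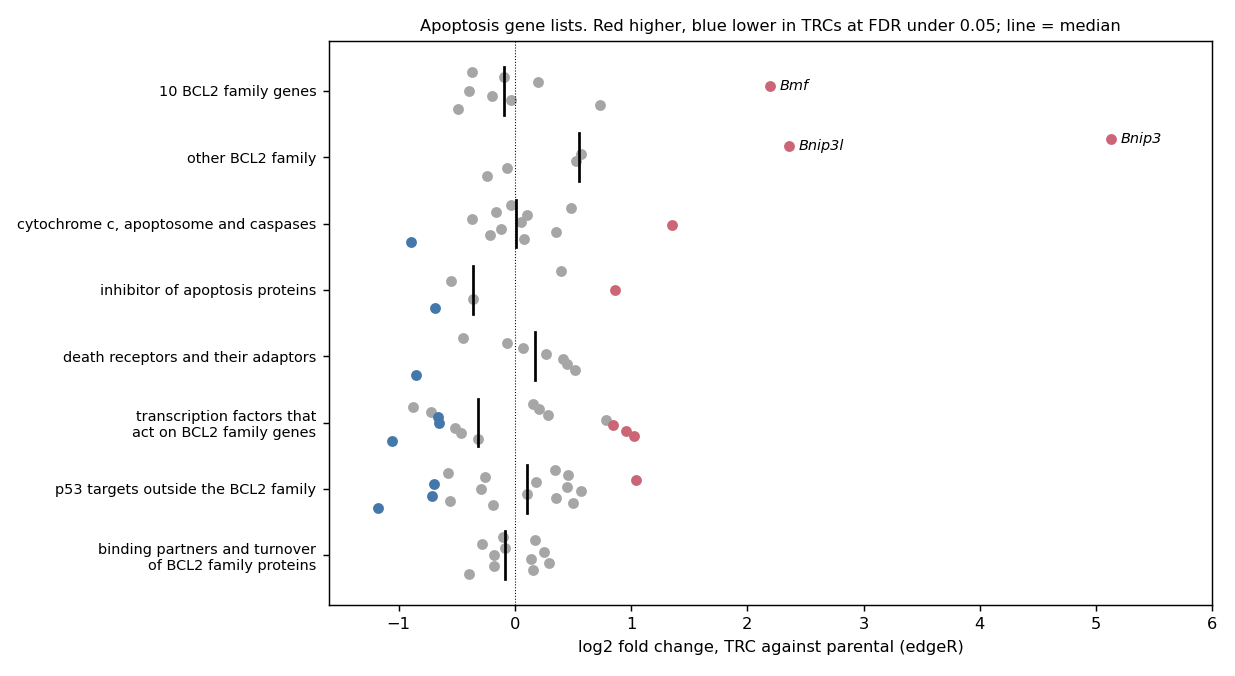
Log2 fold change of TRCs against parental cells (x axis, edgeR) for each gene tested of the 10 BCL2 family genes and of 7 further lists of the apoptosis pathway (rows). Points are genes, red for higher and blue for lower in TRCs at an FDR under 0.05, grey for not called, and the black line is the median of the list. *Bmf*, *Bnip3l* and *Bnip3* lie farthest to the right, and the medians lie between -0.36 and 0.55.

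Of 15 transcription factor genes tested that are known to act on BCL2 family genes, 3 were called higher and 3 lower, with a median log2 fold change of -0.32, where 8.81% and 7.05% of all genes were called. *Foxo3*, whose product is known to act on *Bcl2l11* and *Bbc3*, was at 49.3 and 44.5 CPM in parental replicates 1 and 3 and at 81.0 and 110.1 CPM in TRC replicates 1 and 3, with no overlap. It rose by a log2 fold change of 1.03 (SE 0.24, FDR = 0.000485, edgeR's exact test), and the FDR was 0.0848 without TRC replicate 3. *Hif1a*, a subunit of the hypoxia-inducible factor, rose by 0.96 (FDR = 0.00209) and *Stat3* by 0.84 (FDR = 0.00261) on the log2 scale. The FDR of *Hif1a* was 0.126 without TRC replicate 1. That of *Stat3* was 0.0522 without parental replicate 3 and 0.0584 without TRC replicate 3.

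*Trp53*, which encodes p53, was at 160 and 197 CPM in parental replicates 1 and 3 and at 81.6 and 90.2 CPM in TRC replicates 1 and 3. Both TRC libraries were far below both parental libraries, and the fall of -1.06 on the log2 scale (SE 0.21, FDR = 0.000241, edgeR's exact test) was called with any 1 library left out. *Rela* and *Nfkb1*, subunits of NF-kB, had log2 fold changes of -0.66 each (FDR = 0.0264 and 0.0349). For *Nfkb1* the FDR was 0.0674 in the quasi-likelihood test, and both genes were lost when any library but parental replicate 1 was left out, with FDR values up to 0.277 and 0.330. *Ddit3* (CHOP), a stress-induced factor that acts on BH3-only genes, was chosen for mention after its values were seen. Its counts were 6170 in parental replicate 1 but 664 in parental replicate 3, against 1289 and 2279 in the TRC libraries, a spread between the parental libraries that covered both TRC libraries.

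Of 17 genes tested among p53 targets outside the BCL2 family, 1 rose and 3 fell, with a median log2 fold change of 0.10, beside 8.81% and 7.05% over all genes. *Aen*, a nuclease gene, fell by -1.18 (FDR = 0.000155, edgeR's exact test) on the log2 scale and was called with any 1 library left out. *Mdm2*, the ligase gene that limits p53, fell from 139 ± 1.20 to 85.0 ± 1.001 CPM (SD, n = 2 each), which is -0.71 on the log2 scale (FDR = 0.0132, edgeR's exact test), and without TRC replicate 1 the FDR was 0.161, without TRC replicate 3 0.131 and without parental replicate 3 0.0569. *Ccng1* had a log2 fold change of -0.69 (FDR = 0.0406), but 0.0829 in the quasi-likelihood test and up to 0.472 with a library left out. *Sesn1*, also a FOXO target, rose by 1.04 (FDR = 0.00766), with an FDR of 0.284 without TRC replicate 1 and 0.0670 without parental replicate 3. *Cdkn1a* (p21) was at 99.9 and 128 CPM in parental cells and at 99.1 and 239 CPM in TRCs, so that the groups overlapped (FDR = 0.285). *Bbc3*, *Bax* and *Pmaip1*, of the 10 BCL2 family genes, are among the known p53 targets. *Bbc3* and *Bax* did not pass, and *Pmaip1*, at 0 counts, was not tested. Over the 7 further lists together, 8 of 74 genes tested were called higher and 9 lower in TRCs, where 8.81% and 7.05% of all genes were. With a library left out, the counts ranged from 4 to 11 higher and from 2 to 10 lower, and *Bnip3*, *Bnip3l*, *Trp53* and *Aen* were the 4 genes called in each of these fits. Since the samples are bulk RNA, fewer cells with a transcript and less transcript per cell cannot be told apart for any of these genes.

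Since *Foxo3* and *Hif1a* rose, the 250 bases before the annotated start sites of the BCL2 family genes were searched for the FOXO motif TGTTTAC and for the HIF motif ACGTG or GCGTG, on both strands. *Pmaip1* was left out of this search, so its start sites are not among the windows counted. For the other 9 genes, RefSeq sequences of GRCm38.p6 gave 16 windows. There were several start sites for *Bcl2l1*, *Bbc3*, *Bcl2l11* and *Bmf*, and the windows of *Bbc3* overlap in part. The FOXO motif was in 2 of the 16 windows, where 3.17% of 32851 windows of the same length in the genome hold it. The 2 windows belong to *Bbc3* and *Bcl2l11*, neither of which passed the test. The HIF motif was in 6 of the 16 windows, beside 38.6% of all windows. The 3 windows of *Bmf*, the gene that rose, held neither motif. The windows with the FOXO motif are shown with the match in capitals, beside the window of *Bmf* at its most upstream start site. All are written 5′ to 3′ on the strand of the gene. They are chr7:16310011-16310260 on the plus strand for *Bbc3*, which lies inside the gene but in no exon of it in GENCODE, chr2:128125788-128126037 on the plus strand for *Bcl2l11* and chr2:118549687-118549936 on the minus strand for *Bmf*.
Bbc3: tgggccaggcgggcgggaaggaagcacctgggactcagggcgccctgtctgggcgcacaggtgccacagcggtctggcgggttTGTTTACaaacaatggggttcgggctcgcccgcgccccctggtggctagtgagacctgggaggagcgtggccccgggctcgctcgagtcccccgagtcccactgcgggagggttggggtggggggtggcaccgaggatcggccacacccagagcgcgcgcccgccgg
Bcl2l11: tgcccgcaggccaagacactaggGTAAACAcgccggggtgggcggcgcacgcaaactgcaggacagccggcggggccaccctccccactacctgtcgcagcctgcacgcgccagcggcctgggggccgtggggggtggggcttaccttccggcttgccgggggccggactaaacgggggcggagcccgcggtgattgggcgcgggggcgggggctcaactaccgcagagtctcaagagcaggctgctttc
Bmf: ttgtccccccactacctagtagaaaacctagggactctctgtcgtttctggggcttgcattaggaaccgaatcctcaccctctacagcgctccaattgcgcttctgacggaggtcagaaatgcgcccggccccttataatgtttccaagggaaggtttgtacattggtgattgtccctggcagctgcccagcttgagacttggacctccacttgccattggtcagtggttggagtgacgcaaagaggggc

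In the windows shown, *Bbc3* holds the motif as given and *Bcl2l11* holds it on the opposite strand. A match describes these letters and is not a binding site, and a window without one says nothing of sites elsewhere, such as in introns or distal elements. No binding or chromatin data were analysed here.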

How the data were processed

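The authors deposited 1 file of raw, whole-number counts by Ensembl gene for each library, made from single-end reads of stranded libraries. Per the submitters' processing notes, the tools were CASAVA 1.8.2, Trimmomatic 0.35, TopHat2 2.1.0 with Bowtie2 2.2.6 and SAMtools 1.3, and HTSeq, on GRCm38. How htseq-count treated strand, and its mode, are not given in the sources used here. Reads that htseq-count put on no gene (2.95% to 4.25% of alignments), as ambiguous (0.825% to 0.955%) or as not unique were left out. Reads that align to several places are not counted, so genes with near-identical copies are undercounted.

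Here, only genes reaching 1 CPM in 2 or more of the 4 samples were kept, TMM factors were computed, and groups were compared with the exact test of edgeR 4.0.16 under R 4.3.3, with common and tagwise dispersions and a prior count of 0.125. Standard errors and 95% intervals came from DESeq2 1.42.0. An exact permutation test of 2 against 2 libraries cannot go below p = 0.333, so all p-values rest on the model across genes. Symbols, positions and exon lengths came from GENCODE M21, which held 37607 of the 39179 identifiers. Log2 profiles used CPM plus 0.5. On simulated data for this comparison, the exact test recovered 182 of 200 genes changed by 1.5 on the log2 scale among 11483, with 9 false calls. Apart from *Bmf*, the BCL2 family genes tested had log2 fold changes of only -0.49 to 0.73, so this recovery does not apply to changes of their size.

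The 10 genes and all lists were chosen with earlier results of these data known. All 10 genes are named, with up to 3 called genes in each direction per list, *Trp53*, *Foxo3*, *Mdm2*, *Cdkn1a*, the other BCL2 family genes measured, and the 3 genes nearest to *Bmf*. Other genes named were chosen after their values were seen. The alternatives were 3 filters, 2 normalizations, trended dispersions, edgeR's quasi-likelihood test, once plain and once blocked by replicate number, DESeq2's Wald test, fold changes without a prior count, and each library left out in turn. In the latter the lone library of a group is assumed to vary like the other group. Plots were drawn with matplotlib 3.10.9.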

Additional observations from a re-analysis of the deposited data

How the results depend on the processing

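*Bmf* was called higher in TRCs under each alternative test, filter, normalization and dispersion and with each library left out, with log2 fold changes of 1.804 to 2.49. The number of BCL2 family genes called higher was 1 in each case. The number called lower was 0 except with DESeq2's Wald test, which gave 1 (*Mcl1*, log2 fold change -0.49). The sign changed in 3 genes with 1 library left out, namely *Bcl2* at 0.36 without parental replicate 1, *Bcl2l1* at 0.077 without TRC replicate 1 and *Bbc3* at -0.017 without parental replicate 3 and -0.073 without TRC replicate 1, where none of the 3 was called. With a library left out these genes ranged from -0.44 to 0.36, from -0.18 to 0.077 and from -0.073 to 0.46. Over all genes, the quasi-likelihood test called 567 higher and 487 lower, beside 1012 and 810 in the exact test. With a replicate block it called 477 and 308, and over the 7 further lists 6 higher and 3 lower. The labels do not say that equal numbers mark a shared culture, and deviations of same-numbered libraries correlated with r = 0.027 across 11483 genes. A low correlation over all genes cannot show whether the libraries were paired, and the block was not used in the main test. With each library left out, between 500 and 1078 genes were called higher and between 269 and 854 lower over all genes, 4 to 11 and 2 to 10 over the further lists, and 1 and 0 of the BCL2 family genes. The highest of these counts over all genes came without parental replicate 1. The cause of these changes was not tested. The common coefficient of biological variation between libraries was 21.2%, with 2 libraries per group. *Pmaip1*, with 0 counts in every library, could not be compared under any setting, and the reason for the 0 counts was not tested.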
